A study of Homo sapiens with 6 samples.

Results

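The genes described here were IL4I1 and 9 genes of the tryptophan, kynurenine and aryl hydrocarbon receptor (AHR) pathway in U251 cells, a human glioblastoma cell line, with and without tumor necrosis factor-α (TNF-α). The members were IL4I1, IDO1, IDO2, TDO2, AFMID, KMO, KYNU, AHR, ARNT and CYP1B1, taken by gene symbol as 10 of the 58735 genes in the expression table. IL4I1 was selected on its difference between the TNF-α and control libraries of this same series, and the other members were grouped with it by function, so the values of all 10 members are given as a description, with no p-value, and the count of members past a threshold is read as no support. The NC group consisted of 3 libraries from U251 cells mock-treated with sterile deionized water in the same volume, and the TNF-α group of 3 libraries from U251 cells given recombinant human TNF-α at 10 ng/mL for 24 h. The labels call the 3 libraries of a group independent biological replicates, and all 6 came from this 1 cell line. Expression was measured by poly(A)-selected RNA-seq and is given as FPKM, a read number scaled for exon length and library size. This scaling allows levels to be compared between genes of different length within a library. Comparison between libraries also depends on the library size used, which is described below.

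Tryptophan is broken down mainly through the kynurenine pathway, in which the dioxygenases IDO1, IDO2 and TDO2 open the indole ring, AFMID releases kynurenine, and KMO and KYNU process kynurenine further. IL4I1 is a secreted L-amino acid oxidase that acts on phenylalanine, tyrosine and tryptophan, and its tryptophan product, like kynurenine, can lead to ligands of AHR. AHR is a ligand-activated transcription factor that pairs with ARNT on DNA and induces genes such as CYP1B1, and these enzymes are known in gliomas and other tumors for their effects on T cells and on tumor cell motility.

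The libraries held 31992167 to 37897044 reads in genes. The library size used inside FPKM was 0.925 to 0.959 of these reads in the NC libraries and TNF-α replicate 1. It was 0.693 and 0.759 of them in TNF-α replicates 2 and 3, which raised FPKM relative to reads in genes there. The cause of this lower library size was not tested. TNF-α replicates 2 and 3 stood apart from the other 4 libraries. The share of reads in genes with more than 8 kb of exon was 16.6% and 17.9% in this pair and 28.8% to 29.1% elsewhere, while ribosomal protein genes made up 7.30% and 6.26% here and 2.62% to 2.90% elsewhere. Across genes, TNF-α replicate 1 correlated with the NC libraries at r = 0.979 to 0.980, whereas TNF-α replicates 2 and 3 did so at r = 0.879 to 0.910, and genes within a library are not independent replicates. Each member is therefore also given for TNF-α replicate 1 alone. Of 7 astroglial and glioblastoma markers, 6 reached 1 FPKM in at least 3 libraries (S100B did not), with a summed level of 591 to 643 FPKM in the NC and 705 to 1213 FPKM in the TNF-α libraries. This sum was mostly VIM (mean 343 FPKM in NC and 753 FPKM in TNF-α), and other markers went the other way. GFAP, the astrocyte intermediate filament, fell from a mean of 8.24 to 2.19 FPKM (limma, adjusted p = 0.0210), SOX2 averaged 62.0 and 36.9 FPKM (adjusted p = 0.195), and EGFR stood at 30.4 FPKM in TNF-α replicate 1 and at 7.64 and 9.39 FPKM in TNF-α replicates 2 and 3 against 22.8 to 24.5 FPKM in NC. Of 10 myeloid markers none did, their summed level was 0.896 to 1.23 FPKM in the NC and 0.654 to 1.75 FPKM in the TNF-α libraries, and PTPRC, TYROBP and CD163 had no reads. Of 5 endothelial markers only KDR did, and their summed level was 6.27 to 6.80 FPKM in NC and 2.17 to 6.03 FPKM in TNF-α.

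Promoter sequence is shown for IL4I1 and KYNU, the members with the largest ratios between the groups. IL4I1 starts at the same place as NUP62, a nuclear pore gene, so that the RefSeq promoter window of both genes is identical. The bases that lie upstream of the start in RefSeq and in GENCODE alike are printed 5′ to 3′ on the strand of the gene, from the build GRCh38.p14, at chr19:49929540-49929754 (minus strand) for IL4I1 and chr2:142877414-142877497 (plus strand) for KYNU. Capitals mark a match to GCGTG, the core of the AHR-ARNT response element, which was searched on both strands.
IL4I1 and NUP62: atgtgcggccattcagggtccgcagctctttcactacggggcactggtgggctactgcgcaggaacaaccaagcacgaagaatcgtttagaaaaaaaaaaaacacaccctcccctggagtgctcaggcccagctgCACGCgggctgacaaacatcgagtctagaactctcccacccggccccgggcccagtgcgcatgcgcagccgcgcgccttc
KYNU: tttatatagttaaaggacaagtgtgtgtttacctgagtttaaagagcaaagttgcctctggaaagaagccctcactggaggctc
In the full 250 bases before the RefSeq start, the IL4I1 window held 1 match, on the opposite strand, and the KYNU window held none. At least 1 match was present in 32.2% of all 34943 promoter windows of this length. A match to the NF-κB consensus motif was held by 9.95%, and neither the IL4I1 nor the KYNU window had one. For IL4I1 only the window shared with NUP62 was searched, and any start further downstream was not. A promoter was matched and used for 7 of the 10 members.

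IL4I1 (ENSG00000104951, chromosome 19, 49889654 to 49929539, minus strand, GRCh38) stood at 1.72, 1.19 and 2.06 FPKM in the NC libraries and at 18.5, 43.8 and 39.7 FPKM in the TNF-α libraries. All TNF-α libraries lay above all NC libraries, and TNF-α replicate 1 was the lowest of the 3. These levels came from 159, 100 and 170 reads in NC and from 1524, 2910 and 2473 reads in TNF-α, so that counting error was small beside the distance between the groups. The mean was 34.0 ± 13.6 FPKM (SD, n = 3) in TNF-α against 1.66 ± 0.441 FPKM (SD, n = 3) in NC, a ratio of 20.5. Over the NC mean FPKM, the single TNF-α libraries were 11.2-, 26.4- and 24.0-fold higher. As a share of reads in genes, IL4I1 made up 4.20, 2.92 and 4.89 ppm in NC and 43.9, 77.8 and 77.3 ppm in TNF-α. The groups stayed apart on this scale, and the rise was smaller than that of the mean FPKM. On the log2(FPKM + 1) scale, which understates changes of low genes, the difference was 3.64 (SE 0.34), the 7th highest among the 12136 genes tested, and it was 2.89 with TNF-α replicate 1 as the only TNF-α library. By mean FPKM, IL4I1 moved from rank 10613 to rank 1816 of those genes. In bulk RNA, more cells that express a gene and more RNA per cell cannot be told apart.

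**Figure D1:**
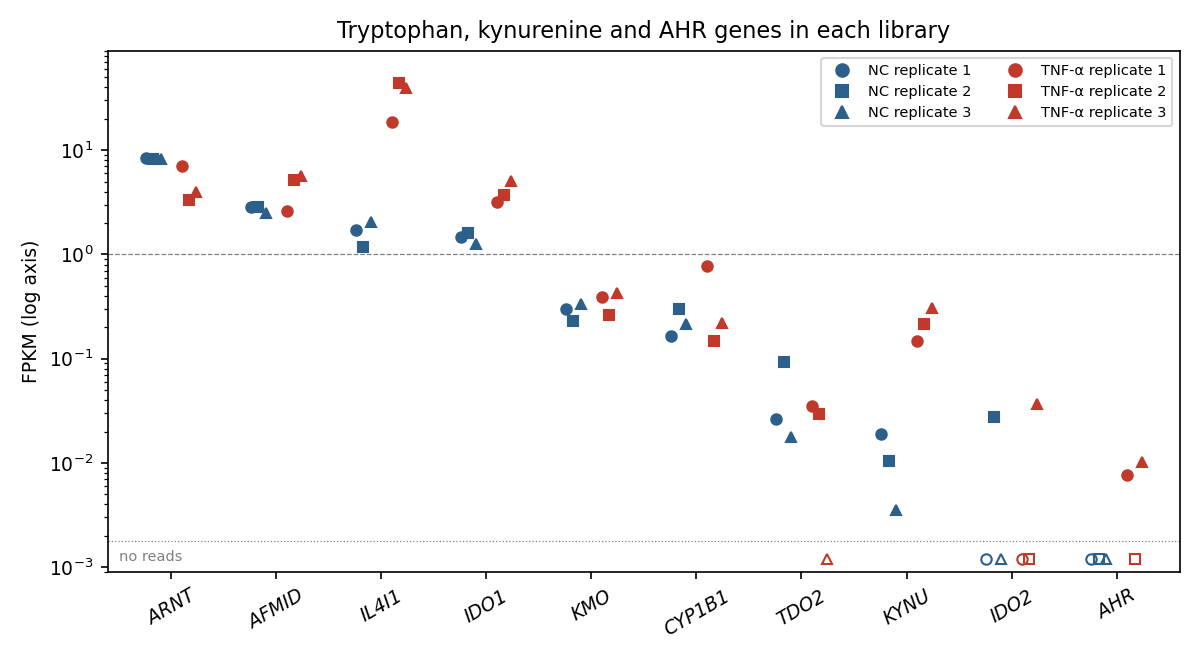
FPKM of the 10 members on a log axis, ordered by the NC mean, with 1 point per library (blue NC, red TNF-α, shape the replicate number), open symbols for libraries with no reads, and a dashed line at 1 FPKM. IL4I1 was the highest member in TNF-α, at 18.5 to 43.8 FPKM, and KYNU separated by group at levels of at most 0.307 FPKM.

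The IL4I1 locus is shared with other genes, and 13.1% of its 2563 exonic bases also belong to exons of NUP62 (336 bases, same strand) and ATF5 (75 bases, opposite strand). NUP62, which codes for a nucleoporin, stood at 40.7, 41.6 and 47.4 FPKM in NC and 51.8, 62.4 and 62.8 FPKM in TNF-α. ATF5, a stress-responsive transcription factor, stood at 13.1, 12.4 and 13.6 FPKM in NC and at 14.5, 32.8 and 28.5 FPKM in TNF-α. Neither passed the test over all genes (limma, adjusted p = 0.195 for both). The level of IL4I1 relative to NUP62 was 0.0422, 0.0286 and 0.0436 in NC and 0.357, 0.702 and 0.633 in TNF-α. Relative to ATF5 it was 0.131, 0.0963 and 0.152 in NC and 1.27, 1.33 and 1.39 in TNF-α, where the 3 TNF-α libraries lay close together. Both ratios were higher in every TNF-α library than in any NC library. Since IL4I1 was chosen on its rise in this contrast, that separation was given by the choice and is a description only. The part of shared exons in the IL4I1 values was not tested. The table gives 1 value per gene, so transcripts of IL4I1 that start at the NUP62 promoter and those that start further downstream were not separated.

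**Figure D2:**
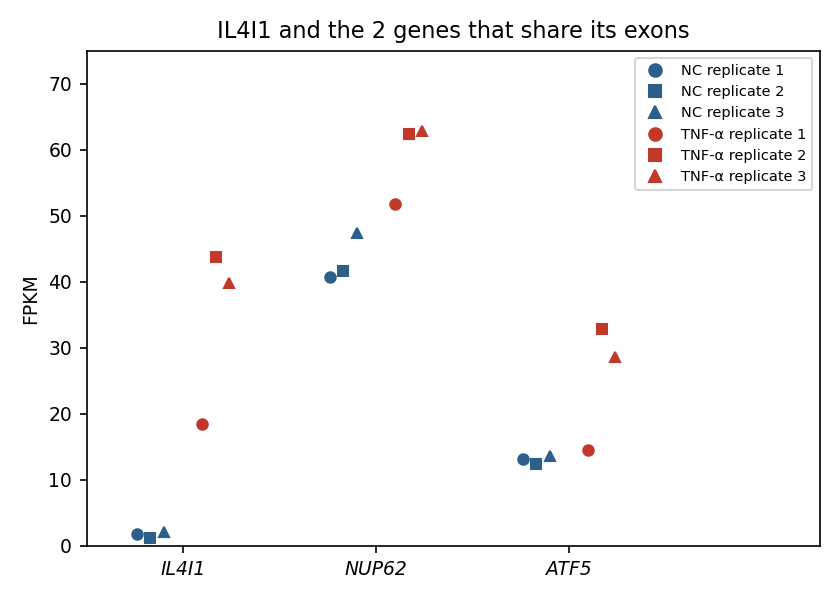
FPKM of IL4I1 and of NUP62 and ATF5, whose exons overlap those of IL4I1, with 1 point per library on a linear axis from 0. IL4I1 stood at 1.19 to 2.06 FPKM in NC and 18.5 to 43.8 FPKM in TNF-α. NUP62 stood at 40.7 to 47.4 FPKM in NC and 51.8 to 62.8 FPKM in TNF-α. ATF5 stood at 12.4 to 13.6 FPKM in NC and 14.5 to 32.8 FPKM in TNF-α. The groups did not overlap for any of these genes.

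Among the first-step dioxygenases, IDO1 carried nearly all the reads. IDO1 (ENSG00000131203, chromosome 8, 39902275 to 39928444) stood at 1.47, 1.62 and 1.27 FPKM in NC and at 3.18, 3.75 and 5.08 FPKM in TNF-α, from 133 to 173 and 317 to 402 reads. The groups did not overlap, and the ratio of the means was 2.76 (4.002 ± 0.974 against 1.45 ± 0.175 FPKM, SD, n = 3 each). The log2 difference was 1.01 (SE 0.17), and it was 0.77 in TNF-α replicate 1 alone. As a share of reads in genes, IDO1 made up 4.565, 5.06 and 3.83 ppm in NC and 9.59, 8.47 and 12.6 ppm in TNF-α. The groups stayed apart on this scale too, and the rise was again smaller than that of the mean FPKM. IL4I1 and IDO1 had overlapping levels in NC, with IL4I1 at 1.17, 0.735 and 1.63 times the FPKM of IDO1, whereas in TNF-α IL4I1 was 5.82, 11.7 and 7.83 times as high. IDO2, the paralog of IDO1, had 4 reads in NC replicate 2, 4 reads in TNF-α replicate 3 and none in the other 4 libraries. TDO2, the dioxygenase best known from liver, had 5, 16 and 3 reads in NC and 6, 4 and 0 in TNF-α, with the highest number in an NC library. The reads of both genes were too few to show a difference at this depth.

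AFMID, the formamidase that yields kynurenine, stood at 2.83, 2.88 and 2.52 FPKM in NC and at 2.61, 5.23 and 5.62 FPKM in TNF-α. TNF-α replicate 1 lay within the NC range, and the 2 libraries above it were those that stand apart. The log2 difference was 0.50 (SE 0.25) with all libraries and -0.05 with TNF-α replicate 1 alone. It was 0.12 on TPM, where the median of all genes was -0.42, and 0.22 with the GC and length correction described below.

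KYNU and KMO, which can both act on kynurenine, were both low. KYNU (ENSG00000115919, chromosome 2, 142877498 to 143055832) had 12, 6 and 2 reads in NC and 83, 98 and 131 reads in TNF-α, or 0.0189, 0.0104 and 0.00354 FPKM against 0.147, 0.215 and 0.307 FPKM. Every TNF-α library lay above every NC library, TNF-α replicate 1 included. The ratio of the mean FPKM was 20.4, close in size to that of IL4I1 but at 0.223 FPKM in TNF-α against 34.0 FPKM for IL4I1. FPKM divides by exonic bases, which number 17600 for KYNU and 2563 for IL4I1. KYNU thus belongs to the genes with more than 8 kb of exon, whose share of reads was lower in TNF-α replicates 2 and 3. KYNU did not reach the 1 FPKM filter. In a limma-voom fit on read numbers recovered from the FPKM values, its log2 difference was 4.38 (SE 0.69) and that of IL4I1 was 4.28. KMO stood at 0.303, 0.231 and 0.335 FPKM in NC and 0.393, 0.260 and 0.429 FPKM in TNF-α, and the groups overlapped. Of the exonic bases of KMO, 28.4% are shared with OPN3 on the opposite strand, which was at 1.38 to 1.90 FPKM in NC and 0.436 to 1.73 FPKM in TNF-α, and the use of strand in counting is not given in the sources used here.

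AHR itself was listed at or near 0, with 0 reads in each NC library and 2, 0 and 2 reads in TNF-α. The annotation gives AHR (ENSG00000106546, chromosome 7, 16916359 to 17346152) 8081 exonic bases, of which 32.3% are shared with AC019117.2 and AC073332.1, both also at 0 FPKM in all libraries. The remaining 67.7% are its own, including all 3232 bases of the last exon. Further genes with shared exons were looked up, picked after their values were seen. Their NC means were 1.16 FPKM for ALDOA (53.5% of exonic bases shared) and 1.75 FPKM for MIF (61.9%). ASNS stood at 0.225 FPKM (44.6%) and CD68 at 0.0186 FPKM (85.8%). Genes picked in this way cannot show whether shared exons lower a value. The part of shared exons in the low AHR value was not tested, and no fold is given.

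ARNT (ENSG00000143437, chromosome 1, 150809705 to 150876768), the partner of AHR, was the highest member in NC. Its levels were 8.33, 8.19 and 8.26 FPKM in NC and 7.10, 3.35 and 3.93 FPKM in TNF-α, with all TNF-α libraries below all NC libraries. The log2 difference was -0.73 (SE 0.24) with all libraries and -0.19 with TNF-α replicate 1 alone, so most of it came from TNF-α replicates 2 and 3. The same 2 libraries gave fewer reads to genes with more than 8 kb of exon, while ARNT has 6516 exonic bases. The cause of the lower ARNT values was not tested. The difference of ARNT was -0.64 with length correction and -0.61 with GC and length correction, and it was -1.29 on TPM, where the median of all genes was -0.42. CYP1B1, a cytochrome P450 that AHR induces, stood at 0.166, 0.299 and 0.217 FPKM in NC and at 0.781, 0.148 and 0.219 FPKM in TNF-α. TNF-α replicate 1, with 151 reads, was alone above the NC range, while the other TNF-α libraries, with 23 and 32 reads, were not. Of the exonic bases of CYP1B1, 13.0% are shared with RMDN2, RMDN2-AS1 and CYP1B1-AS1.

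The order of levels also differed between the groups. In NC, ARNT was above AFMID, and AFMID above IL4I1 and IDO1, whose ranges overlapped. KMO and CYP1B1 followed with overlapping ranges, and TDO2, KYNU, IDO2 and AHR were lowest, each overlapping the next. In TNF-α, IL4I1 was above all other members, ARNT, AFMID and IDO1 overlapped in turn, CYP1B1, KMO and KYNU did so below them, and TDO2, IDO2 and AHR remained lowest. This order is by FPKM. By total reads in TNF-α, KYNU (312) stood above CYP1B1 (206) and KMO (177).

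Of the 10 members, 4 reached the filter of 1 FPKM in 3 libraries (IL4I1, IDO1, AFMID and ARNT), and IL4I1 alone passed an adjusted p of 0.05 in limma, which 123 of the 12136 genes tested, or 1.01%, passed (0.717% higher and 0.297% lower in TNF-α). The groups did not overlap for 3 of these 4 members, against 30.1% of all genes tested. IL4I1 did not pass when any 1 library other than TNF-α replicate 1 was left out. Since the contrast served to choose the members, nothing is read from these counts.

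**Figure D3:**
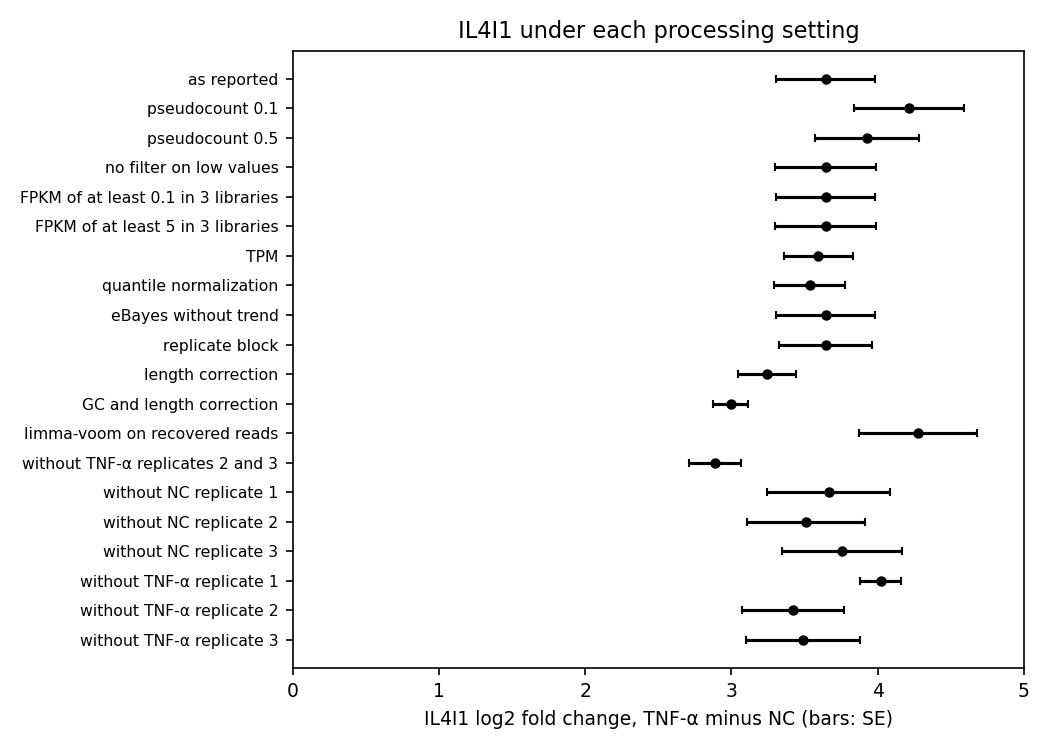
Log2 fold change of IL4I1 (TNF-α minus NC, bars SE) as reported and under each of 19 other processing settings, on an axis from 0. All values lay between 2.89 and 4.28, the lowest with TNF-α replicates 2 and 3 left out.

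The genes whose pattern over the 6 libraries was most like that of IL4I1 were LAYN, ROBO4, SLC2A6, NFKB2 and LAMB3, each with Pearson r = 0.999 on the log2(FPKM + 1) scale. LAYN, a hyaluronan receptor, had a mean of 35.5 FPKM in NC and 97.5 FPKM in TNF-α, and SLC2A6, a glucose transporter family member, had 4.45 and 30.8 FPKM. NFKB2, a subunit of the noncanonical NF-κB pathway, had 17.2 and 117 FPKM, LAMB3, a laminin chain, 8.50 and 18.0 FPKM, and ROBO4, a roundabout family receptor, 0.399 and 1.74 FPKM. Of the 12135 other genes, 52 had an r of at least 0.99, 375 of at least 0.95 and 850 of at least 0.9. The 6 points share the group difference and the split of TNF-α replicates 2 and 3.

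The wider pathway was followed in 5 lists of 88 genes without the members, of which 50 were tested. In limma with all 6 libraries 0 of the 50 passed an adjusted p of 0.05, against 1.01% of all genes. At an unadjusted p under 0.05 there were 16, 7 higher and 9 lower in TNF-α. Of all 12136 genes tested, 2942 had such a p, 1495 higher and 1447 lower. The limma-voom fit on the recovered reads passed 0 of 63, against 0.814% of all genes. Groups did not overlap for 21 of the 50, 9 higher and 12 lower, against 30.1% of all genes. The median log2 difference was 0.27, against 0.04 over all genes tested. The count depended on TNF-α replicates 2 and 3. With TNF-α replicate 1 as the only TNF-α library, which is assumed to vary like the NC libraries, 8 of 50 passed against 6.45% of all genes. Without TNF-α replicate 1, 46 of 50 passed against 79.8% of all genes.

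**Figure D4:**
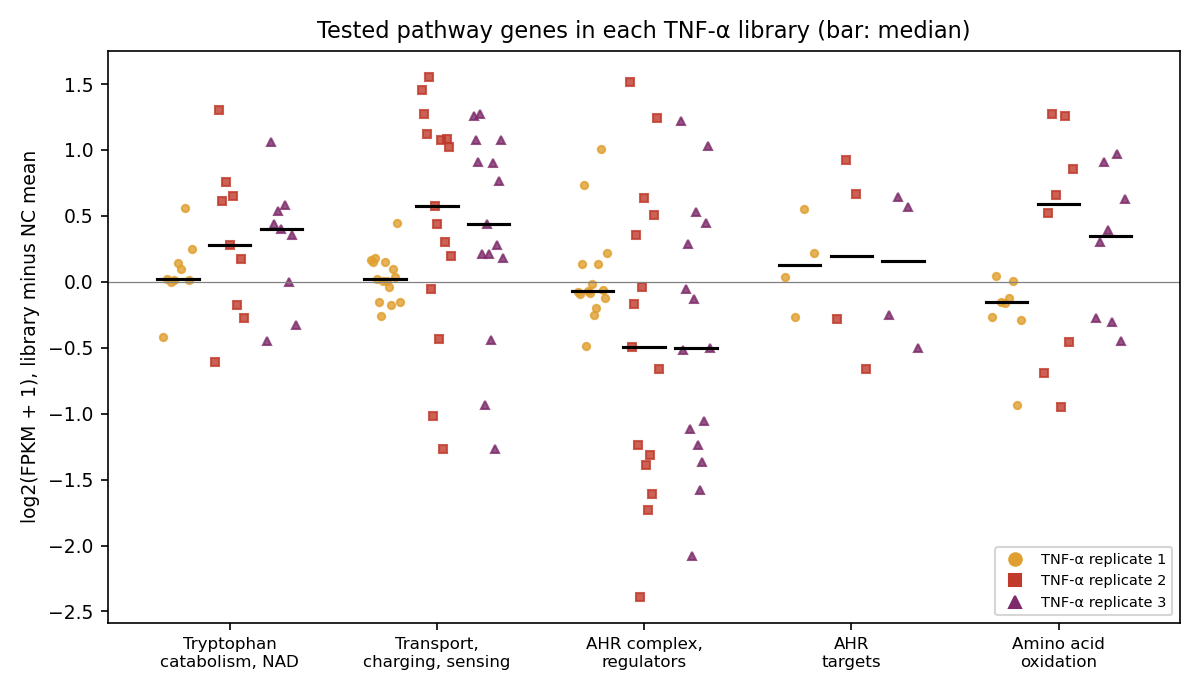
Difference of each tested pathway gene from the NC mean on the log2(FPKM + 1) scale, by list and by TNF-α library, with a bar at the median of the list. In TNF-α replicate 1 the medians lay between -0.16 and 0.13, and in TNF-α replicates 2 and 3 the genes spread further in both directions.

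In tryptophan catabolism and NAD synthesis, 9 of 23 genes were tested, and the median log2 difference was 0.27. An unadjusted p under 0.05 was found for 2 of the 9, against 2942 of all 12136 genes tested. AADAT, which turns kynurenine into kynurenic acid, stood at 5.83 ± 0.102 FPKM in NC and 3.86 ± 0.331 FPKM in TNF-α (SD, n = 3 each), a log2 difference of -0.49 (limma, adjusted p = 0.151). With TNF-α replicate 1 alone it fell by 0.42. Here and below such a value rests on 1 TNF-α library, and no spread among TNF-α libraries enters it. NAMPT, the entry enzyme of NAD salvage, stood at 11.2, 12.0 and 10.3 FPKM in NC and at 16.9, 9.73 and 11.1 FPKM in TNF-α. Only TNF-α replicate 1 was above the NC range, and with that library alone NAMPT rose by 0.56. With all libraries its log2 difference was 0.13 (limma, adjusted p = 0.646). GOT2 and KYAT3, aminotransferases that can act on kynurenine, had log2 differences of 0.35 and 0.27 (adjusted p = 0.227 and 0.196). AADAT, like WARS, ARNTL2, NRIP1, CUL4B and PIPOX below, passed in another setting and was picked after its values were seen, as were DDO, DAO and AHRR.

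In tryptophan transport, charging and amino acid sensing, 15 of 20 genes were tested, and the median was 0.34. An unadjusted p under 0.05 was found for 6 of the 15 (4 higher, 2 lower), against 2942 of all 12136 genes tested. WARS, the tryptophanyl-tRNA synthetase, stood at 24.0, 21.3 and 24.3 FPKM in NC and at 32.0, 48.1 and 49.99 FPKM in TNF-α, without overlap. Its log2 difference was 0.85 (limma, adjusted p = 0.158), and with TNF-α replicate 1 alone it rose by 0.45. ATF4, the transcription factor of the amino acid response, averaged 71.1 ± 1.08 FPKM in NC and 149 ± 61.7 FPKM in TNF-α (SD, n = 3 each). It stood at 79.7 FPKM in TNF-α replicate 1 and at 197 and 172 FPKM in TNF-α replicates 2 and 3. The log2 difference of ATF4 was 0.96 (limma, adjusted p = 0.195), and with TNF-α replicate 1 alone it rose by 0.16. SLC7A5 and SLC3A2, which form the LAT1 transporter that carries tryptophan, had log2 differences of 0.23 and 0.65 (adjusted p = 0.269 and 0.197).

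In the AHR complex and its regulators, 15 of 16 genes were tested, and the median was -0.31. An unadjusted p under 0.05 was found for 5 of the 15 (1 higher, 4 lower), against 2942 of all 12136 genes tested. The 3 TNF-α libraries had medians of -0.07, -0.49 and -0.50, so the lower values came from TNF-α replicates 2 and 3. CUL4B, a scaffold of ubiquitin ligases with which AHR associates, averaged 44.9 ± 1.75 FPKM in NC and 23.5 ± 7.21 FPKM in TNF-α (SD, n = 3 each, limma, adjusted p = 0.151). With TNF-α replicate 1 alone it fell by 0.49. ARNTL2, a paralog of ARNT, had 13.6, 14.0 and 14.6 FPKM in NC and 24.1, 18.2 and 17.4 FPKM in TNF-α. Its adjusted p in limma was 0.195 with all libraries, and with TNF-α replicate 1 alone it rose by 0.74. NRIP1, a nuclear receptor cofactor, lay on both sides of NC, at 3.84, 4.26 and 4.08 FPKM in NC and 9.19, 0.654 and 1.43 FPKM in TNF-α. With TNF-α replicate 1 alone it rose by 1.01, whereas with all libraries its log2 difference was -0.55 (limma, adjusted p = 0.513). The chaperones HSP90AB1, HSP90AA1 and PTGES3, which hold AHR in the cytosol, had log2 differences of 0.38, -0.08 and 0.30 (adjusted p = 0.269, 0.705 and 0.283).

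Among 14 AHR target genes, 4 were tested and 1 had an unadjusted p under 0.05, against 2942 of all 12136 genes tested. This was STC2, a secreted glycoprotein, at 5.98 ± 0.573 FPKM in NC and 9.52 ± 0.454 FPKM in TNF-α (SD, n = 3 each), a log2 difference of 0.59 and the smallest adjusted p of the 50 genes (0.117). With TNF-α replicate 1 alone STC2 rose by 0.55. NQO1, a quinone reductase, stood at 151, 145 and 137 FPKM in NC and 120, 274 and 226 FPKM in TNF-α, below NC in TNF-α replicate 1 and above it in the others (adjusted p = 0.321). NFE2L2, the regulator of the oxidative stress response, had a log2 difference of -0.16 (adjusted p = 0.380). TIPARP, the remaining gene tested here and named to complete them, stood at 3.56, 3.79 and 3.54 FPKM in NC. In TNF-α it stood at 4.39, 1.93 and 2.27 FPKM, above NC in TNF-α replicate 1 and below it in the others. Its log2 difference was -0.31 (limma, adjusted p = 0.331). CYP1A1, the best known AHR target, was below the filter with 2, 6 and 2 reads in NC and 19, 18 and 15 reads in TNF-α, and is named after its values were seen. Its groups did not overlap, but its highest level was 0.202 FPKM. The AHR repressor AHRR overlapped, at 0.286 ± 0.0580 FPKM in NC and 0.239 ± 0.0452 FPKM in TNF-α (SD, n = 3 each).

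In amino acid oxidases and aromatic amino acid breakdown, the enzymes nearest in function to IL4I1, 8 of 17 genes were tested, and the median was 0.29. An unadjusted p under 0.05 was found for 2 of the 8, both lower in TNF-α, against 2942 of all 12136 genes tested. PIPOX, a peroxisomal oxidase of pipecolic acid and sarcosine, stood at 5.02, 4.95 and 4.83 FPKM in NC and 2.11, 3.34 and 3.36 FPKM in TNF-α, without overlap. Its log2 difference was -0.61 (limma, adjusted p = 0.188), and with TNF-α replicate 1 alone it fell by 0.93. The D-aspartate oxidase DDO, the other oxidase tested, averaged 2.03 FPKM in NC and 2.74 FPKM in TNF-α (adjusted p = 0.211), and the D-amino acid oxidase DAO had no reads. GOT1, an aminotransferase, and PCBD1 and QDPR, which recycle the cofactor of the aromatic hydroxylases, had log2 differences of 0.30, 0.74 and 0.40 (adjusted p = 0.327, 0.195 and 0.329).

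When log2 values were corrected for the GC content and length of each gene in each library, a correction chosen after the data were seen, 4 of the 50 pathway genes passed against 2.10% of all genes. These were ARNTL2 (0.79, adjusted p = 0.0175) and NAMPT (0.56, adjusted p = 0.0297), which rose, and PIPOX (-0.85, adjusted p = 0.0141) and CUL4B (-0.57, adjusted p = 0.0284), which fell. With TNF-α replicate 1 alone the differences of ARNTL2, NAMPT, PIPOX and CUL4B were 0.74, 0.56, -0.93 and -0.49. Both fits use the same NC libraries and TNF-α replicate 1, so their likeness is not replication. With length alone corrected, PIPOX passed, against 1.27% of all genes. In the same GC and length correction the log2 difference of IL4I1 was 2.996.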

How the data were processed

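Per the labels, poly(A) RNA of U251 cells was sequenced in 3 NC and 3 TNF-α libraries, and the submitters' processing notes name HISAT2 2.0.5, StringTie 1.3.3b, featureCounts 1.5.0, DESeq2, edgeR and GATK 3.7 without giving their roles. The authors deposited FPKM values per gene, and 6 further columns of per-sample values that matched no sample label were not used. Gene lengths and positions of all 58735 genes equalled those of GENCODE release 29 (GRCh38). Each FPKM value was a whole number of reads after rescaling (100% within 0.01), which gave the read numbers printed here. Intervals were not computed, and 3 reads were taken as the detection limit.

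Genes with at least 1 FPKM in at least 3 of 6 libraries were tested on log2(FPKM + 1) with limma 3.58.1 (trend, two-sided, R 4.3.3), Benjamini-Hochberg adjustment over all genes tested and a threshold of 0.05. The scripts were tested on simulated data. The members and lists were chosen with earlier results of these data known. Genes named were the members, pathway genes past the threshold, the 3 most expressed genes of each list, the 5 genes most like IL4I1, and genes sharing exons with a member, and any others are marked where they appear. Promoters came from RefSeq (GRCh38.p14), where IDO1, IDO2 and CYP1B1 were not used here. Alternatives varied the pseudocount, filter, scaling, trend, length and GC correction, replicate block, voom on recovered reads and the libraries used.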

Additional observations from a re-analysis of the deposited data

How the results depend on the processing

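The count of genes past the threshold was 123 and moved to 58 without a filter, 79 with at least 5 FPKM, 58 on TPM (median of all genes -0.42), 185 after quantile normalization, 24 with the replicate block, 255 with GC and length correction (added after the data were seen), 755 without TNF-α replicates 2 and 3, and 12 to 9489 with 1 library left out (12, 17 and 17 without NC replicates 1, 2 and 3, and 9489, 18 and 13 without TNF-α replicates 1, 2 and 3). Same-numbered libraries correlated at -0.01, -0.18 and 0.12 in their deviations, so the numbers were not taken as pairs. In this balanced design the replicate block cannot change a fitted difference (IL4I1 3.64), and only the spread and the calls moved. Pathway genes past the threshold, 0 as reported, were 1 with length correction, 4 with GC and length correction, 8 without TNF-α replicates 2 and 3, and 0 to 46 with 1 library left out. The log2 difference of IL4I1 was 2.89 without TNF-α replicates 2 and 3 and 3.42 to 4.02 with 1 library left out, and as IL4I1 was chosen on this contrast no test is read from it. Without TNF-α replicates 2 and 3, the log2 difference reversed for GOT2 (-0.0037), SLC3A2 (-0.037), HSP90AB1 (-0.014), PTGES3 (-0.061), NQO1 (-0.27), NFE2L2 (0.040), GOT1 (-0.16) and QDPR (-0.29). On TPM it reversed for GOT2 (-0.15), KYAT3 (-0.20), NAMPT (-0.35), SLC7A5 (-0.28), HSP90AB1 (-0.12), PTGES3 (-0.20), NQO1 (-0.070), GOT1 (-0.19) and QDPR (-0.085). After quantile normalization it reversed for GOT2 (-0.13), SLC7A5 (-0.26), HSP90AB1 (-0.36), PTGES3 (-0.28) and NQO1 (-0.23), with length correction for KYAT3 (-0.17), with GC and length correction for SLC7A5 (-0.18), HSP90AA1 (0.0055) and GOT1 (-0.025), and without TNF-α replicate 1 for NAMPT (-0.089, and -0.089 to 0.28 with 1 library left out). The causes were not tested. The planned edgeR test was not run, since the deposited values are not counts. Read numbers limited IDO2, TDO2 and AHR, for which no difference was detectable.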
